A study of Homo sapiens with 6 samples.

Results

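NRF2, encoded by NFE2L2, and 9 genes that bind it, degrade it, compete with it or pair with it were followed in LX2 cells with and without Syy. The other genes are NFE2L1, KEAP1, CUL3, BACH1, MAFF, MAFG, MAFK, SQSTM1 and DPP3. They were taken by name, and all 10 were on the array, with 16 probes among 31741; the brightest probe, by its mean over the arrays, stood for each gene, among 18365 genes in all. LX2 is an established human line derived from hepatic stellate cells, which lay down scar matrix in the liver, so that every sample comes from the same cell line. Total RNA was hybridised to one-channel Phalanx arrays, 3 from cells treated with Syy and 3 from control cells. Syy is the submitters' code name for a small compound described as blocking what stellate cells secrete. Its dose, the length of treatment, the vehicle and any allele or transgene of the cells are not stated in the labels used.

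NRF2 is the transcription factor that switches on genes for glutathione synthesis, quinone reduction, haem breakdown and iron storage. In resting cells KEAP1 holds NRF2 and, with the scaffold CUL3, passes it to ubiquitin ligation and the proteasome; oxidants and electrophiles act on KEAP1 and let NRF2 build up. Free NRF2 enters the nucleus, pairs with a small Maf protein (MAFF, MAFG or MAFK) and binds antioxidant response elements, sites that BACH1 can occupy as a repressor with the same partners. SQSTM1 (p62) and DPP3 carry motifs that dock on KEAP1 and so can displace NRF2. NFE2L1 encodes NRF1, a relative of NRF2 that sits in the endoplasmic reticulum membrane and is known for driving proteasome genes. NRF2 is controlled largely through protein stability, and only transcript levels were measured here.

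With Syy, 4 of the 10 transcripts fell and 1 rose, at an adjusted p under 0.05 in limma fitted over all genes. SQSTM1 fell 2.46-fold, BACH1 1.69-fold, KEAP1 1.52-fold and NFE2L2 1.43-fold, while NFE2L1 rose 1.28-fold. The small Maf genes and DPP3 did not pass, and the CUL3 probe carried no usable signal. Of all 18365 genes 22.4% were called, 11.5% lower and 11% higher, and the Syy and control values did not overlap in 38.3%. For the 10 genes, chosen with earlier results known, 50% were called and 50% did not overlap. Brighter probes were called more often: with only probes above the median, 37.6% of 10991 genes were called. Of the 10 genes 9 lay above that median, and of these 1 was called higher and 4 lower. The median log2 fold change of the 10 was -0.09, against 0.00 over all genes. Values below are log2(intensity + 16), quantile normalized over the arrays, on which an intensity of 0 reads about 4 and the median probe 5.29. Adding 16 shrinks the fold changes of dim genes, but the normalization can enlarge them. The log2 change of the dim NFE2L2 probe was -0.52 on this scale and -0.25 without normalization between arrays. Scaling shifts the balance of directions across the array: 48.9% of all calls were higher with Syy here, 60% with median centring and 81.1% in the deposited values.

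**Figure D1:**
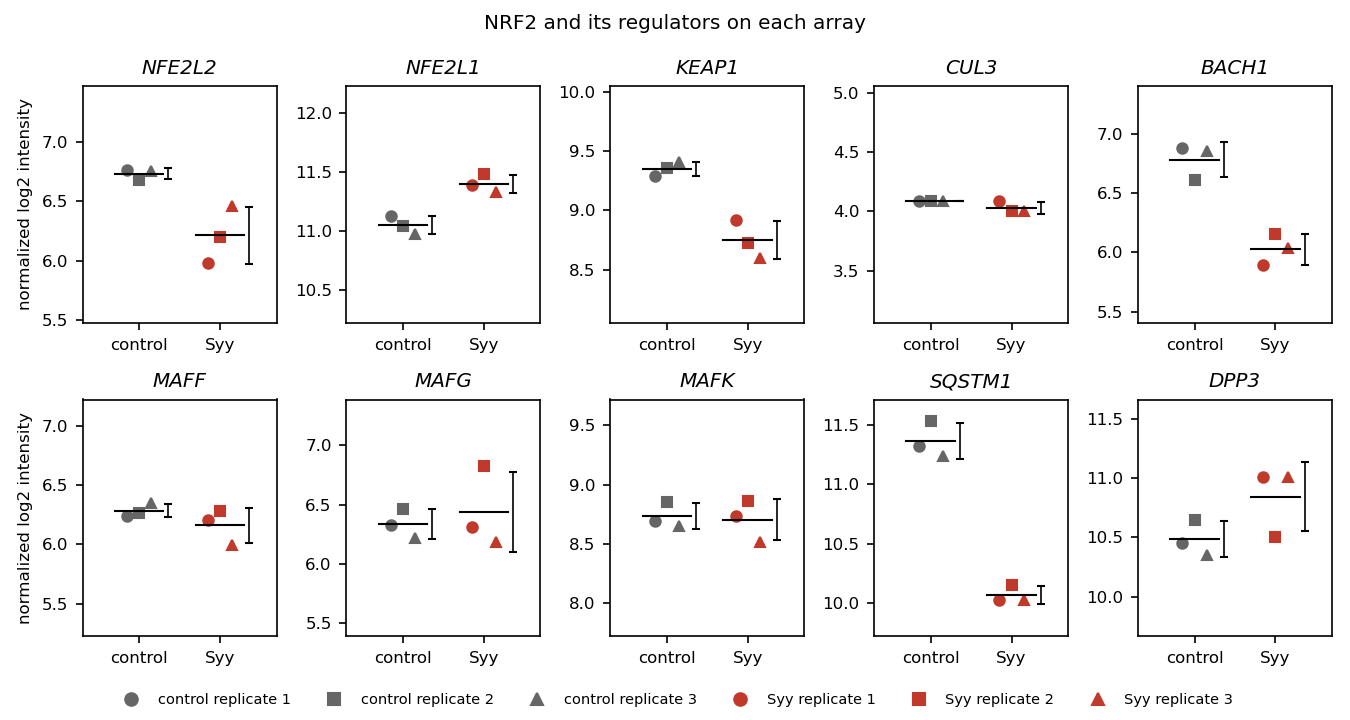
Normalized log2 intensity of each gene on each array (y axis, every panel spanning 2 log2 units, at its own level) in control and Syy cells; symbols are replicates, horizontal bars the group means and error bars the SD (n = 3). SQSTM1, BACH1, KEAP1 and NFE2L2 lie lower on every Syy array than on any control array and NFE2L1 lies higher, while the other genes overlap.

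The arrays themselves were alike in rank order, with Spearman correlations over all probes from 0.968 to 0.985. Stellate cell markers were strong for VIM, TAGLN, TIMP1, ACTA2, SPARC and COL1A1, but DES, GFAP and LRAT read at most 9.62 units of deposited intensity on any array, which is near nothing. Syy replicate 3 stood apart: the summed deposited intensity of 16 hepatocyte markers was 24722 there, mostly from APOA2 (16843). The sum was 498.3 on Syy replicate 1, 828.8 on Syy replicate 2 and between 559.1 and 851.2 in controls. For 6 macrophage markers the sums were 2735 to 3400 with Syy and 1618 to 1935 in controls, mostly from CD14, with PTPRC at most 3.95. Sums for 4 cholangiocyte markers were 1115 to 1465 with Syy and 991.0 to 1178 in controls. Of these, KRT19 read 439.5 on Syy replicate 3, 29.6 and 31.6 on Syy replicates 1 and 2, and 23.9 to 134.9 in controls. Sums for 5 endothelial markers were 59.2 to 95.7 with Syy and 58.9 to 62.9 in controls. In bulk RNA, fewer cells carrying a transcript and less of it in each cell cannot be told apart. Without Syy replicate 3 the regulators gave 4 lower and 1 higher, as with it, so the counts were the same without that array.

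NFE2L2 itself came from a fairly dim probe. It read 5.98, 6.20 and 6.46 on Syy replicates 1 to 3 and 6.76, 6.68 and 6.76 on the controls. Every Syy value lay below every control value, although the spread was wider with Syy (SD 0.24) than without (SD 0.05). The log2 fold change was -0.52 ± 0.13 (SE, n = 3 each), with an adjusted p of 0.035. This separation came with the normalization: in deposited intensity the Syy arrays read 51.3, 67.3 and 77.9 and the controls 94.3, 76.0 and 70.8, which overlap. The call did not survive most alternatives. It was lost on the deposited scale (-0.25, adjusted p = 0.315), after median centring (-0.38, adjusted p = 0.108) and with cyclic loess (-0.49, adjusted p = 0.0601). Leaving out an array ended it for Syy replicate 1 (adjusted p = 0.0552), Syy replicate 2 (0.103) and each of the controls 1, 2 and 3 (0.111, 0.0919 and 0.11). It held with Syy replicate 3, the array with hepatocyte transcripts, left out (-0.63, adjusted p = 0.0134). All 15 alternatives kept the negative sign, and 5 kept the call. The second NFE2L2 probe gave the same size of change, -0.52 ± 0.19 (SE), but overlapped between the groups and was not called in the fit over all probes, of which 17.8% were called (adjusted p = 0.138). It read 5.91, 5.58 and 6.26 with Syy and 6.44, 6.63 and 6.24 in controls, so that Syy replicate 3 was the highest of its group on both probes.

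NFE2L1, which encodes the endoplasmic reticulum-bound relative NRF1, went the other way. It read 11.39, 11.48 and 11.33 with Syy and 11.13, 11.04 and 10.97 in controls. The groups were tight (SD 0.08 in each) and did not overlap, in normalized values or in deposited intensity (2575 to 3091 against 1797 to 2152). The rise was 0.35 ± 0.07 (SE) on the log2 scale, with an adjusted p of 0.0166. The call was lost without control replicate 2 or 3 (adjusted p = 0.0627 and 0.0567) and without both Syy replicate 3 and control replicate 2 (0.0961), while the change stayed between 0.31 and 0.51 over the 15 alternatives.

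KEAP1, the adaptor that holds NRF2 for degradation, fell with it. It read 8.92, 8.73 and 8.60 with Syy and 9.29, 9.36 and 9.41 in controls. The deposited intensities also did not overlap, at 403.9 to 508.2 against 560.0 to 587.1. The log2 fold change was -0.60 ± 0.09 (SE), with an adjusted p of 0.00932. It was smaller and not called on the deposited scale (-0.31, adjusted p = 0.0708), and was not called without both Syy replicate 3 and control replicate 2 (-0.53, adjusted p = 0.0781). Each array that was left out singly left the KEAP1 call in place. No unequal change of NFE2L2 and KEAP1 was detected: the log2 difference between them within an array shifted by 0.08 with Syy (exact permutation test, two-sided, p = 0.7, n = 3 each, where 0.1 is the smallest p possible). That shift rested on single arrays: it was 0.29 without Syy replicate 1 (exact permutation p = 0.1, again the smallest possible) and -0.10 without Syy replicate 3.

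CUL3, the cullin scaffold of the KEAP1 ligase, could not be judged. Its only probe read 0.987, 0 and 0 in deposited intensity with Syy and 1.08, 1.01 and 0.920 in controls, each of these being 0 or 1 step of the array's scale. No level or direction can be read from such values.

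The KEAP1 window is shown because letters matching the core of the antioxidant response element occur in it. Binding of NRF2 was not measured. The core TGACNNNGC was searched on both strands in RefSeq promoter windows of GRCh38.p14, from 250 bases before to 50 after a start, together with TGAGTCA, the AP-1 site, which can overlap the core. Of 35116 windows, 13.3% held the core and 4.95% TGAGTCA. Windows were found for 9 of the 10 genes (not MAFK), 18 in all. The core was in 2 of the 18, at the downstream start of KEAP1 and the upstream start of MAFF. That is near the share over all windows. TGAGTCA occurred in 1 BACH1 window. No match lay in the windows of NFE2L2, NFE2L1, SQSTM1, DPP3, CUL3 or MAFG, which says only that these letters are not there. GCLM and TXNRD1, NRF2 targets chosen after their values were seen, are shown for comparison. Capitals mark the matches, either strand, in 100 bases written 5′ to 3′ along the gene.
KEAP1: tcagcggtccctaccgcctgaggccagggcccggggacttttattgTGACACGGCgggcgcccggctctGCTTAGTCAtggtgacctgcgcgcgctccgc
GCLM: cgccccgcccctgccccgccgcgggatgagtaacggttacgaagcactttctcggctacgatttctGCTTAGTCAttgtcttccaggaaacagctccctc
TXNRD1: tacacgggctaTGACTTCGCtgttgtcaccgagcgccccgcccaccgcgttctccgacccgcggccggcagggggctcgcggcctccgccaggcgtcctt
MAFF: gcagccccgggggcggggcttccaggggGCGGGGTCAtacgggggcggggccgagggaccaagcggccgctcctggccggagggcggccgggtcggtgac
BACH1: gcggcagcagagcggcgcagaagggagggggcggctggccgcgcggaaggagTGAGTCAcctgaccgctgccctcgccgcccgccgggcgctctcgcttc
These stretches are chr19:10502772-10502871, minus strand, for KEAP1 and chr1:93909431-93909530, minus strand, for GCLM. Those of TXNRD1 (chr12:104215669-104215768), MAFF (chr22:38201844-38201943) and BACH1 (chr21:29298822-29298921) are on the plus strand. KEAP1 and GCLM share the match GCTTAGTCA, beginning 31 and 34 bases before their starts, within a shared run of 13 letters, tctgcttagtcat. That match occurs in 0.103% of all windows, and the longer run in 3 of them. Both counts include KEAP1 and GCLM themselves. The run was found by comparing these stretches, so its rarity tests nothing. KEAP1 fell by 0.60 with Syy and GCLM by 1.60 on the log2 scale. Whether the core took part in these falls was not tested. A window reaches only 250 bases before a start, so an element farther away would be missed. HMOX1, SLC7A11, FTH1 and PRDX1, which fell, had no window and are not in the counts that follow. Of 21 NRF2 targets with a window, 9 held the core, of which 4 fell and 5 were not called; of the 12 without it 4 fell and 8 were not called. TXNRD1 (-1.45) fell with the core, whereas ME1 (0.12) and PGD (0.09), with the core, were not called, and AKR1C1 (-1.36) and OSGIN1 (-1.77) fell without it. These genes were named after their values were seen. Among the regulators MAFF, with the core, did not pass, and BACH1, without it, fell by 0.76.

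SQSTM1, the autophagy receptor that binds KEAP1 and is itself known as an NRF2 target, showed the largest change of the 10. It read 10.02, 10.15 and 10.02 with Syy and 11.33, 11.53 and 11.24 in controls. In deposited intensity this was 1120, 1275 and 1070 against 2477, 2834 and 2194, with no overlap. The log2 fold change was -1.30 ± 0.09 (SE), with an adjusted p of 0.00219, and it was called in all 15 alternatives, at -1.35 to -1.10. In size it ranked above 99.3% of all genes.

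DPP3, a peptidase that also docks on KEAP1, read higher with Syy without passing. It read 11.01, 10.51 and 11.01 with Syy and 10.45, 10.65 and 10.36 in controls, so Syy replicate 2 lay among the controls. The log2 difference was 0.36 ± 0.16 (SE), with a 95% interval from -0.04 to 0.76 and an adjusted p of 0.184. Without Syy replicate 2 it was 0.53 and called (adjusted p = 0.0377). In deposited intensity the groups did not overlap, at 1603 to 2217 against 1142 to 1503.

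BACH1, the repressor that competes with NRF2 for its sites, fell. Its brightest probe read 5.89, 6.15 and 6.04 with Syy and 6.88, 6.61 and 6.86 in controls. The groups did not overlap in normalized values or in deposited intensity (47.4 to 64.2 against 72.0 to 103.0). The log2 fold change was -0.76 ± 0.10 (SE), with an adjusted p of 0.00688. The call was narrowly lost on the deposited scale (-0.51, adjusted p = 0.0544), and without both Syy replicate 3 and control replicate 2 (-0.84, adjusted p = 0.0519). Its other probes lay below the median of all probes, at 4.26 to 4.96 on every array, and were not called (-0.08 and -0.05); averaging the 3 probes gave -0.30, still called.

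The small Maf genes, which supply the common partner of NRF2, NRF1 and BACH1, did not pass. MAFK read 8.74, 8.86 and 8.51 with Syy and 8.69, 8.86 and 8.65 in controls, a difference of -0.03 with a 95% interval from -0.29 to 0.24. Its sign turned in 6 of 15 alternatives. MAFF read 6.20, 6.28 and 5.99 with Syy and 6.24, 6.26 and 6.35 in controls, and its interval ran from -0.34 to 0.09; its sign turned in the values as deposited (0.09). MAFG differed mainly by a single array. It read 6.82 on Syy replicate 2, while Syy replicates 1 and 3 gave 6.31 and 6.18 and the controls 6.22 to 6.46. The second MAFG probe repeated this, with 5.90 on Syy replicate 2 and 5.11 to 5.33 on the other 5 arrays. The change over all arrays was 0.10 (95% interval -0.34 to 0.54, adjusted p = 0.739), and -0.09 without Syy replicate 2. A failed test does not show that these levels were equal, and the intervals give the changes that 3 arrays a group leave possible.

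**Figure D2:**
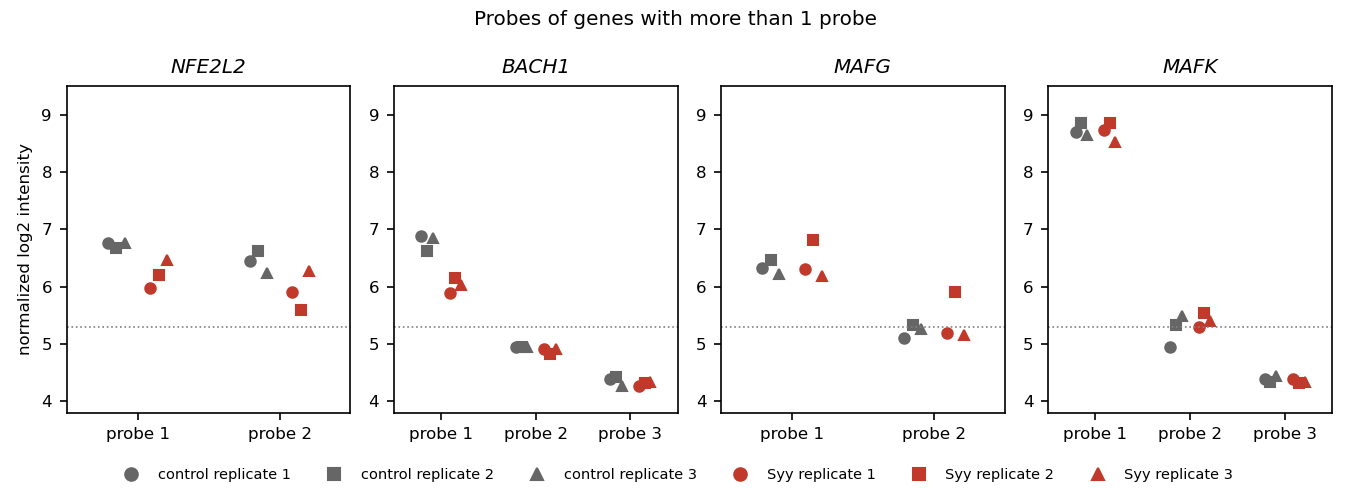
Normalized log2 intensity (y axis) of every probe of the 4 genes with more than 1 probe, ordered from bright to dim; symbols are replicates and the dotted line is the median of all probes, 5.29. Both MAFG probes are highest on Syy replicate 2, and the NFE2L2 probes shift by the same amount, whereas the dimmer BACH1 probes lie under the median.

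**Figure D3:**
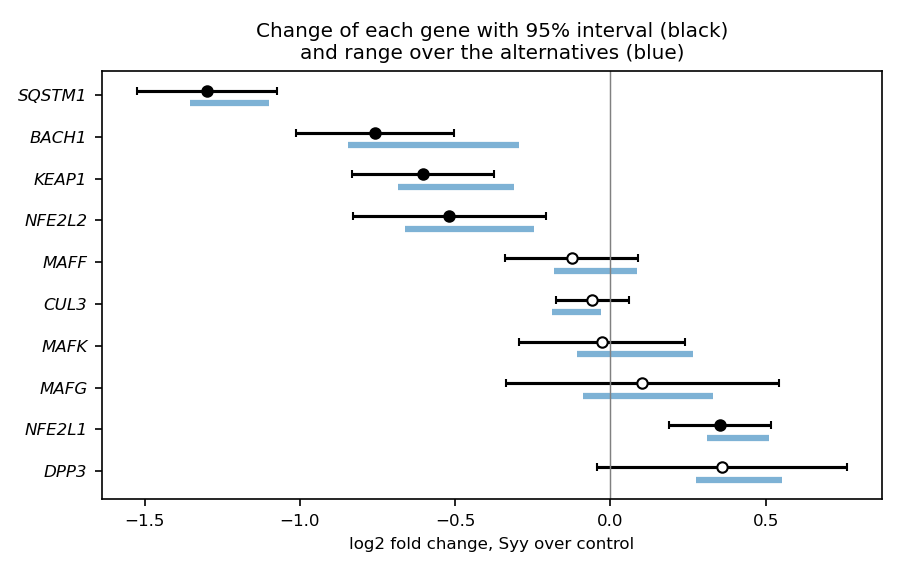
Log2 fold change of Syy over control (x axis) for each gene, with the 95% interval of the fit in black (filled points were called) and the range over up to 15 alternatives in blue. SQSTM1 at -1.30 lies apart from the others, and the ranges of MAFF, MAFK and MAFG span no change.

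Among the genes that NRF2 switches on, the calls were falls. Of 29 measured NRF2 targets 12 fell, none rose and 17 were not called, with a median of -0.21. Over all genes 11.5% were called lower and 11% higher. Of the 29 targets 25 lay above the median of all probes, and with only such probes 37.6% of genes were called. The list was chosen with earlier results known. A single target rose without Syy replicate 1, with median centring and as deposited. The smallest p-values were those of AKR1C1, an aldo-keto reductase (-1.36), HMOX1, haem oxygenase 1 (-3.13), OSGIN1 (-1.77) and SLC7A11, the cystine transporter (-2.67). The SLC7A11 change is that of the brighter of 2 probes, and their mean gave -1.38, also called. The value of AKR1C1 is uncertain, since close relatives may hybridise to the same probe. The brightest targets that were not called, FTL, the ferritin light chain (-0.08), and TKT, transketolase (-0.17), differed little, though with median centring FTL was called (-0.31, adjusted p = 0.0346). Leaving out single arrays gave 10 to 12 lower targets, and 9 remained in number with both Syy replicate 3 and control replicate 2 left out. HMOX1 is also a classic target that BACH1 represses, and it fell while BACH1 transcript fell. BACH1 protein was not measured, and a link between these changes was not tested.

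In the machinery that tags NRF2 for degradation, 2 of 13 further ligase genes and cofactors fell, 1 rose and 10 were not called. Their median was -0.05. These 3 calls are a share near the 22.4% over all genes. All 13 had probes above the median, and with only such probes 37.6% of genes were called. These shares also belong beside the counts of the lists below. SKP1 (-0.72) and the F-box protein FBXW11 (-0.38), parts of the ligase that reads GSK3-phosphorylated NRF2, fell, and the kinase GSK3B rose by 0.41. The SKP1 change was -0.31, still called, as the mean of its 2 probes. FBXW11 and GSK3B lost their calls when probes were averaged (adjusted p = 0.196 and 0.402), and FBXW11 also without control replicate 1, 2 or 3 (0.0594, 0.0541 and 0.056), with median centring (0.19) and as deposited (0.701). RBX1, the ring subunit shared with CUL3, read -0.05, and NEDD8, which activates cullins, 0.02, neither called. Without both Syy replicate 3 and control replicate 2 none of the 13 was called.

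Other proteins known to bind KEAP1 or NRF2 were called in both directions, 4 of 17 higher and 4 lower, with a median of -0.04. IKBKB, a kinase of the NF-kappaB pathway that KEAP1 can bind, rose by 0.75, and MCM3, a replication helicase subunit and KEAP1 partner, by 0.89; IKBKB was not called without both Syy replicate 3 and control replicate 2 (adjusted p = 0.067). CSNK2A1, a catalytic subunit of casein kinase 2, which can phosphorylate NRF2, rose by 0.57, a call lost without Syy replicate 1 or 2 or control replicate 1 or 3 (adjusted p = 0.0523 to 0.0606). TRIM21, which ubiquitinates SQSTM1, fell by 0.37, a call lost without control replicate 2 or 3 (0.0679 and 0.0613), with median centring (0.138) and as deposited (0.549). NIBAN2 (FAM129B on the array) read 0.06 and the coactivator CREBBP 0.04, neither called. The lower count was 2 without Syy replicate 2 or 3 or control replicate 1, 1 without control replicate 2 and none without control replicate 3. The higher count was 2 without Syy replicate 2 or control replicate 1 or 3. With median centring 5 were higher and 1 lower, in the values as deposited 5 higher and none lower, and without both Syy replicate 3 and control replicate 2 there were 2 higher and none lower.

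Among 6 relatives in the CNC and large Maf families 2 fell and none rose, with a median of 0.01. MAFA, a beta cell factor, fell by 0.50 and NRL, a retinal factor, by 0.46. As deposited, neither passed (adjusted p = 0.335 and 0.289), and as means over probes both changes were about -0.24 and not called (0.0943 and 0.0733). Neither was called without both Syy replicate 3 and control replicate 2 (0.107 and 0.259). NRL also failed with median centring (0.0983) and without Syy replicate 2 or 3 or control replicate 2 or 3 (0.105 to 0.131). NFE2L3, the relative closest to NFE2L1, read 0.28 higher without passing (adjusted p = 0.0634, or 0.0188 with median centring and 0.0268 as deposited), and NFE2 read -0.01.

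Genes that process NRF1 into its active form split, with 2 of 7 higher and 2 lower and a median of -0.03. VCP, which extracts NRF1 from the membrane, rose by 0.65 and HCFC1, which with OGT stabilises it, by 0.68. FBXW7, which targets NRF1 for degradation, fell by 0.45, though its mean over probes moved by only -0.02 (adjusted p = 0.885), and it was not called with median centring (0.0534) or as deposited (0.256). NGLY1, which removes sugars from NRF1, fell by 0.38, a call lost without Syy replicate 2 or any 1 control (0.0557 to 0.096), with median centring (0.179) and as deposited (0.669). OGT (-0.60, adjusted p = 0.055) and the ligase SYVN1 (0.39, adjusted p = 0.14) did not pass. SYVN1 was called with median centring and as deposited, and OGT with only probes above the median (0.0245). Proteasome subunits, the classic targets of NRF1, were mostly not called. Of 33 genes, the subunits and the chaperone POMP, 2 rose, 4 fell and 27 were not called, with a median of -0.05. All 33 had probes above the median, where 37.6% of genes were called. PSMC6 fell by 1.47 and PSMD11 rose by 0.67, while PSMA3 (-0.78) and PSMD8 (-0.31) fell; PSMB4 (-0.07) and PSMB6 (-0.12) were not called, but PSMB6 was with median centring and as deposited (adjusted p = 0.0236 and 0.0394). PSMC6 lost its call without control replicate 1 or 3 (adjusted p = 0.0532 and 0.0515), PSMA3 without Syy replicate 1 or 2 or control replicate 1 or 2 (0.067 to 0.0822) and PSMD8 without any 1 control (0.0514 to 0.0613). The lower count was 2 without Syy replicate 2, 6 without Syy replicate 3, none without control replicate 1 and 1 without control replicate 2 or 3. The higher count was 1 without Syy replicate 1 or 3 or control replicate 1 or 3. After median centring 2 were higher and 10 lower, in the values as deposited 5 higher and 4 lower, and without both Syy replicate 3 and control replicate 2 there were 2 higher and 1 lower.

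SQSTM1's partners in selective autophagy were called in both directions: 4 of 18 rose and 4 fell, with a median of -0.03. TBK1, the kinase that phosphorylates SQSTM1, fell by 1.05. BECN1 (0.64) and ULK1 (0.47), which start autophagosome formation, and MAP1LC3B (0.44), the membrane protein that SQSTM1 binds, rose. MAP1LC3A (-0.58, adjusted p = 0.0534) and GABARAP (-0.16, adjusted p = 0.0783) were not called. MAP1LC3A was called without Syy replicate 2 (-0.76, adjusted p = 0.0134). It was also called with median centring (0.0299), cyclic loess (0.0473) and only probes above the median (0.0246). GABARAP was called with a pseudocount of 32 (0.0488). The lower count was 2 without Syy replicate 1 or 2 or control replicate 1, and 1 without control replicate 2 or 3. In the values as deposited 6 were higher and 1 lower, and without both Syy replicate 3 and control replicate 2 none was higher and 1 lower.

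**Figure D4:**
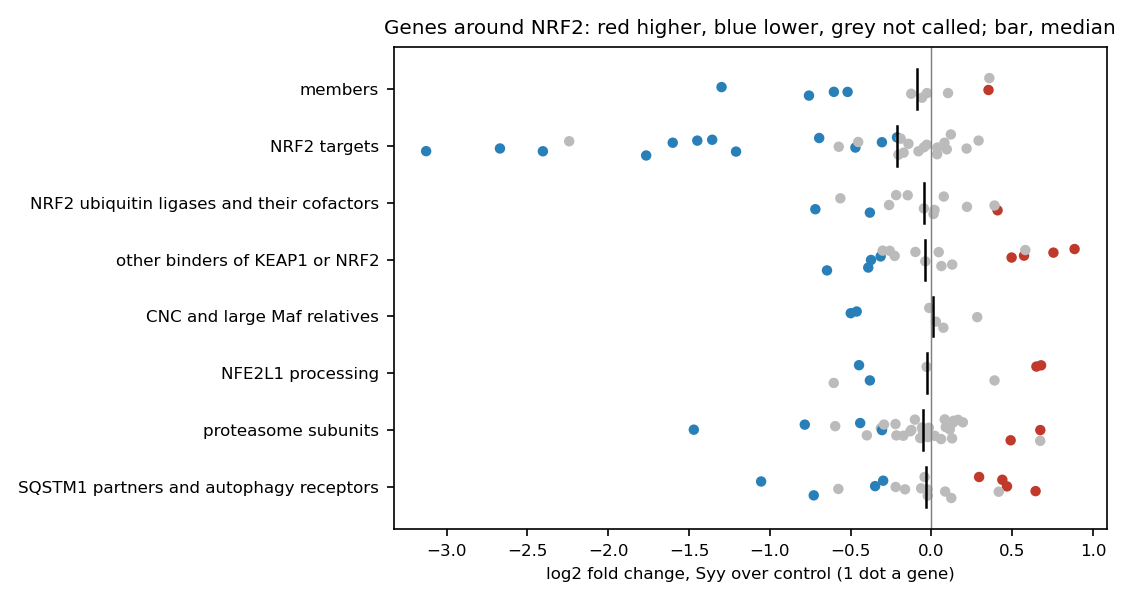
Log2 fold change of Syy over control (x axis) for the regulators (members) and 7 lists of genes around NRF2 (y axis); each dot is a gene, coloured by its call, and the bar is the list median. NRF2 targets reach -3.13 and have the lowest median, -0.21, while the medians of the other lists lie near 0.

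Over the 6 arrays, the genes whose centred profile lay nearest to that of NFE2L2, among 9182 genes above the median level, were NIPBL, TULP4 and DCP2, at root mean square distances of 0.034, 0.039 and 0.042 log2 units. Nearest to KEAP1 were METTL1, IBA57 and C9orf37, at 0.031, 0.032 and 0.034. These distances describe 6 arrays only.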

How the data were processed

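RNA of 3 Syy and 3 control samples was measured on one-channel arrays; per the labels' protocols it was amplified and labelled with Cy5. The deposited values are linear intensities, scaled by the authors with 1 factor per array (0.920 to 1.08), as the values themselves show; neither scanner software nor background method is stated in the labels. Separate cultures are not named, so p-values reflect the spread between these arrays alone, possibly a technical one. The arrays' upper quartiles differed (137.0 to 200.9), so log2(intensity + 16) was quantile normalized over all 31741 probes. Of these 24740 had 1 gene symbol in the platform annotation, 977 several and 6024 were unnamed here. Each gene was represented by its brightest probe. Groups were compared with limma 3.58.1 (R 4.3.3, lmFit and eBayes, two-sided), adjusted by Benjamini-Hochberg over 18365 genes, at 0.05. The members, lists and alternatives were chosen with earlier results of these data known; 170 of 175 list entries were placed on the array. Named were all members, and from each list the 4 called, non-overlapping genes of smallest p and the 2 brightest not called. On simulated data for this comparison over 18365 genes, 68% of 50 genes raised by 1 log2 unit were recovered, 80% of 50 lowered by 1, 26% of 50 raised by 0.5 and 34% of 50 lowered by 0.5. The number of arrays limits the precision.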

Additional observations from a re-analysis of the deposited data

How the results depend on the processing

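Alternatives were other scalings, pseudocounts of 8 and 32, a filter on dim probes, the mean over probes, a replicate block, and arrays left out. The 4 lower regulators numbered 1 in the values as deposited, 1 with the replicate block and 1 without both Syy replicate 3 and control replicate 2, in each case SQSTM1; leaving out single arrays gave 3 to 4. The 1 higher regulator numbered 0 with the replicate block and 0 without that pair of arrays, and 0 to 2 when single arrays were left out. Of 122 listed genes, 13 were higher and 30 lower; these counts were 23 and 17 in the values as deposited and 6 and 12 without that pair, the lower count was 15 with the replicate block, and single arrays left out gave 9 to 11 higher and 15 to 29 lower. Of the 33 proteasome genes 1 was higher and 0 lower with the replicate block. Over all genes the alternatives gave 566 to 3157 higher and 535 to 2133 lower. The cause of these shifts was not tested. Fits with arrays left out have less power, whereas the values as deposited use all 6 arrays. No sign that the replicate numbers pair the samples was seen: deviations of same-numbered arrays correlated at -0.08, -0.08 and -0.03. Those of differently numbered arrays correlated at -0.02 to 0.10. Such values cannot decide whether the samples were paired, since deviations from a mean of 3 arrays are bound to one another. With the replicate block NFE2L1, KEAP1, BACH1 and NFE2L2 had adjusted p of 0.055, 0.0549, 0.0509 and 0.0786. Of the 25 called genes named from the lists, 9 were called in every alternative, and none turned its sign; of 210 alternative values of the 14 not called, 13 were called. Dim probes, CUL3 above all, carry too little signal over background to judge.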
